A study of Mus musculus with 16 samples.

Results

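The extracellular matrix genes described here are the collagens and 13 further matrix genes, measured in mouse ileal epithelium, adenomas and carcinomas. They were chosen by name: each gene whose probe set carried a single symbol of the form Col, number, a, number, or the symbol Fbln1, Fbln2, Fn1, Sparc, Postn, Lum, Dcn, Bgn, Tnc, Tnxb, Lox, Mgp or Nid1. Fbn1, also sought, had no probe set with a single symbol. This gave 44 genes (31 collagens and 13 others) on 64 probe sets, of 8251 genes on 12488 probe sets. For each of the 14 genes with more than 1 probe set, the brightest was used.

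The samples were carcinoma (n = 5), adenoma (n = 5) and WT (n = 6), each labelled as epithelial cells of the mouse ileum. The cells were taken by laser capture microdissection, in which cells are cut from a tissue section under a microscope, and their RNA was amplified in 2 rounds and hybridised to Affymetrix MG_U74Av2 arrays, 1 array per sample. The sources used here do not give genotype, strain, age or the choice of captured regions, so nothing can be said of the tumour model or of what the groups share beyond organism and tissue. No label links an array to an animal. P-values therefore measure only the spread between these arrays, and are too small where arrays of a group share a mouse.

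Collagens are triple-helical proteins built from 3 chains each. Fibrillar collagens of types I, III and V form the tension-bearing fibres of connective tissue, type IV forms the sheet of the basement membrane under an epithelium, and fibril-associated collagens coat fibres or link them to other molecules. Glycoproteins such as fibronectin, tenascins and fibulins tie this scaffold to cells and to elastic fibres. In the gut wall most of these proteins are made by fibroblasts, smooth muscle and endothelium, while epithelial cells contribute mainly to the basement membrane.

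Signals are probe set intensities on a linear scale, given below as deposited. For tests, values under the floor of 46.9 (the 25th percentile of all values) were raised to it and log2 was taken, which understates changes of dim genes. A gene was tested if it exceeded the floor on at least 5 arrays, which left 40 of the 44 members among 7455 genes. Of the 44 members, 24 exceeded the floor on all 16 arrays. Col4a3, Col4a4 and Col17a1 were too dim to test, and Col22a1 lay at the floor on every array. Log2 differences come with their standard error from limma, and a call is a Benjamini-Hochberg adjusted p under 0.05 over all genes tested.

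The arrays differed by group in their control probe sets. The log2 ratio of the Gapdh 3' to 5' signal, a measure of how far transcripts are represented towards their 5' end, was 5.70 ± 0.58 in carcinomas, 5.82 ± 0.24 in adenomas and 4.52 ± 0.39 in WT (SD, n = 5, 5 and 6), with adjusted p = 0.00649 for each tumour against WT by exact permutation tests. The same ratio for beta-actin ran the other way, at 6.04 ± 0.44 in carcinomas, 5.87 ± 0.30 in adenomas and 6.25 ± 0.17 in WT, with neither tumour past the threshold (adjusted p = 0.445 and 0.0649, exact permutation). Mean log2 signal of the spiked-in control transcripts was 12.23 ± 0.50 in carcinomas, 12.24 ± 0.82 in adenomas and 13.74 ± 1.0 in WT (adjusted p = 0.0487 for each tumour, exact permutation). With the Gapdh ratio as a covariate none of the member calls below passed, at adjusted p from 0.0529 to 0.558 for carcinoma and from 0.101 to 0.544 for adenoma against WT (limma). Log2 differences kept their direction while their standard errors grew. The ratio itself ran from 4.95 to 6.45 in carcinomas, 5.52 to 6.12 in adenomas and 4.09 to 5.02 in WT. It nearly followed the groups, so a fit with both can hardly tell them apart, and the lost calls do not decide between them. In carcinomas Col9a3 had 2.03 ± 0.50 with the covariate (2.12 ± 0.30 without), Col1a1 1.40 ± 0.39 (1.41 ± 0.23) and Col4a1 1.73 ± 0.46 (1.48 ± 0.28). Others moved further there: Col5a2 to 2.27 ± 0.56 (1.75 ± 0.35), Col6a1 to -0.81 ± 0.50 (-1.04 ± 0.30) and Dcn, by more than 1.5 times, to 1.66 ± 0.50 (1.08 ± 0.32). In adenomas Fbln2 moved to -1.98 ± 0.52 (-1.47 ± 0.31) and Tnxb to -2.27 ± 0.88 (-3.05 ± 0.51).

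Markers of other cell types were measured beside the matrix genes. All 14 epithelial markers on the array were tested, and their summed signal was 60775 to 133915 in carcinomas, 79025 to 119336 in adenomas and 107817 to 226294 in WT. The 18 mesenchymal and fibroblast markers summed to 2903 to 3938 in carcinomas, 2870.3 to 4085 in adenomas and 2962 to 4439 in WT, ranges that overlap, with Meox2 at the floor on every array. Smooth muscle markers (10 genes, Smtn at the floor throughout) summed to 3263 to 4105 in carcinomas, 3757 to 7772 in adenomas and 5593 to 9417 in WT. Of the 15 mesenchymal markers tested, 3 fell and none rose in carcinomas, and 3 fell and 1 rose in adenomas. Endothelial markers (10 genes) summed to 4191 to 11117 in carcinomas, 4478 to 10583 in adenomas and 3383 to 6851 in WT. The 7 tested mast cell markers held 3 that rose in both tumours, the 11 macrophage markers none that was called, and 1 to 3 of the 8 lymphocyte and plasma cell markers fell. Of 9 smooth muscle markers tested, 2 fell in each tumour and 1 rose in adenomas. Of the 14 epithelial markers 2 fell in each tumour, and of 7 nerve and glia markers 1 did. Of 9 endothelial markers, 1 rose and 1 fell in adenomas and none was called in carcinomas. Over all genes, 4.2% were called higher and 4.92% lower in carcinomas, and 4.05% and 4.31% in adenomas. The summed signal of the 44 matrix genes was 23443 to 41742 in carcinomas, 20740.0 to 35595 in adenomas and 15313 to 24846 in WT. The brightest members weigh most in this sum. Dcn averaged 7119 in carcinomas, 4209 in adenomas and 3358 in WT, and Col4a1 5732, 6073 and 2057. The part of cell mixture in the results below was not tested, and fewer cells of a type cannot be told apart from less RNA per cell.

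**Figure D1:**
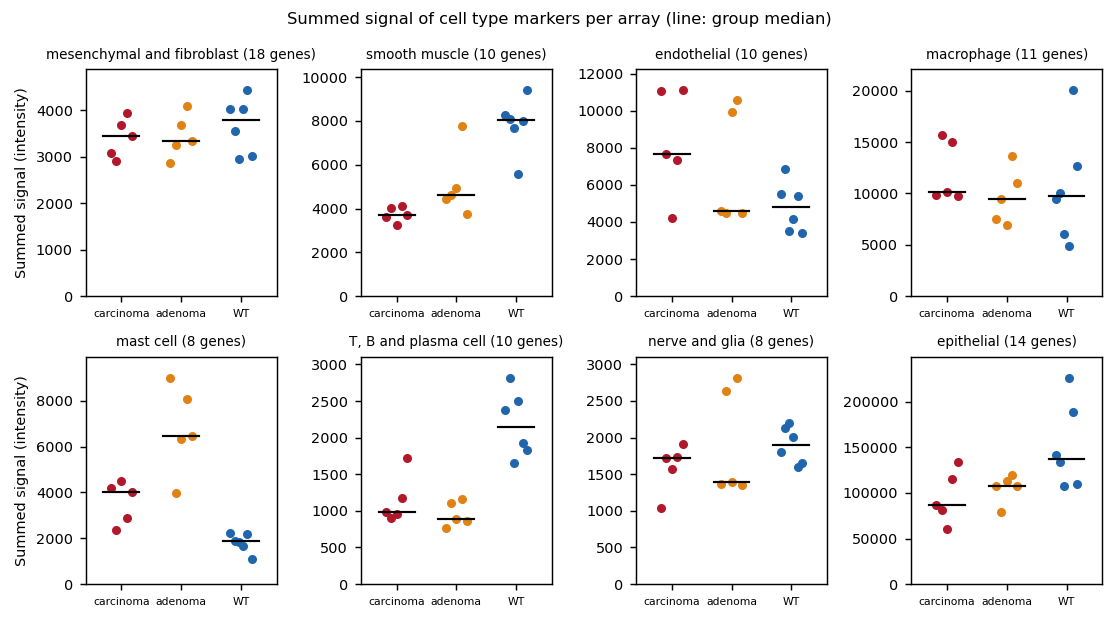
Summed signal (linear intensity) of 8 cell type marker lists, 1 panel per list and 1 point per array, with carcinoma, adenoma and WT side by side and the group median as a line. Mesenchymal marker sums overlap between the groups (2903 to 3938, 2870.3 to 4085 and 2962 to 4439), while smooth muscle sums were lower in all carcinomas than in all WT arrays.

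Carcinoma against WT gave the most matrix calls. Of the 40 tested members, 8 were higher in carcinomas and 2 were lower, which is 20% and 5% of the members, against 4.2% and 4.92% of all genes tested (680 calls of 7455, or 9.12%, in all). The members higher were the fibrillar chains Col1a1, Col1a2 and Col5a2, the basement membrane chains Col4a1 and Col18a1, the fibril-associated chain Col9a3, the adhesive glycoprotein Fn1 and the proteoglycan Dcn. Those lower were Col6a1 and Tnxb, a share near the background. The median log2 difference was 0.24 over the members and -0.14 over all genes, and 67.5% of members were positive, against 41.1% of all genes. Leaving out the 4 WT arrays with the highest spike-in signal left 2 WT arrays and ended the calls of Col1a2 (1.57), Fn1 (1.31), Dcn (1.12), Col6a1 (-0.87) and Tnxb (-2.78), at adjusted p from 0.0561 to 0.395.

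Adenoma against WT gave fewer. In adenomas 4 members were higher (Col4a1, Col18a1, Col9a3 and Fn1) and 3 were lower (Fbln2, Tnxb and Col19a1), which is 10% and 7.5% of the members, against 4.05% and 4.31% of all genes (623 calls of 7455, or 8.36%, in all). The median log2 difference of the members, -0.14, was that of all genes, and 45% of members were positive, against 40.1% of all genes. All 4 members higher in adenomas and 1 of those lower, Tnxb, were also called in carcinomas, but both comparisons use the same WT arrays. Leaving out the 4 WT arrays with the highest spike-in signal ended the adenoma calls of Col18a1 (0.99), Fn1 (1.15), Tnxb (-2.77), Col19a1 (-1.35) and Fbln2 (-0.96, against -1.47 with all WT arrays), at adjusted p from 0.0605 to 0.31.

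**Figure D2:**
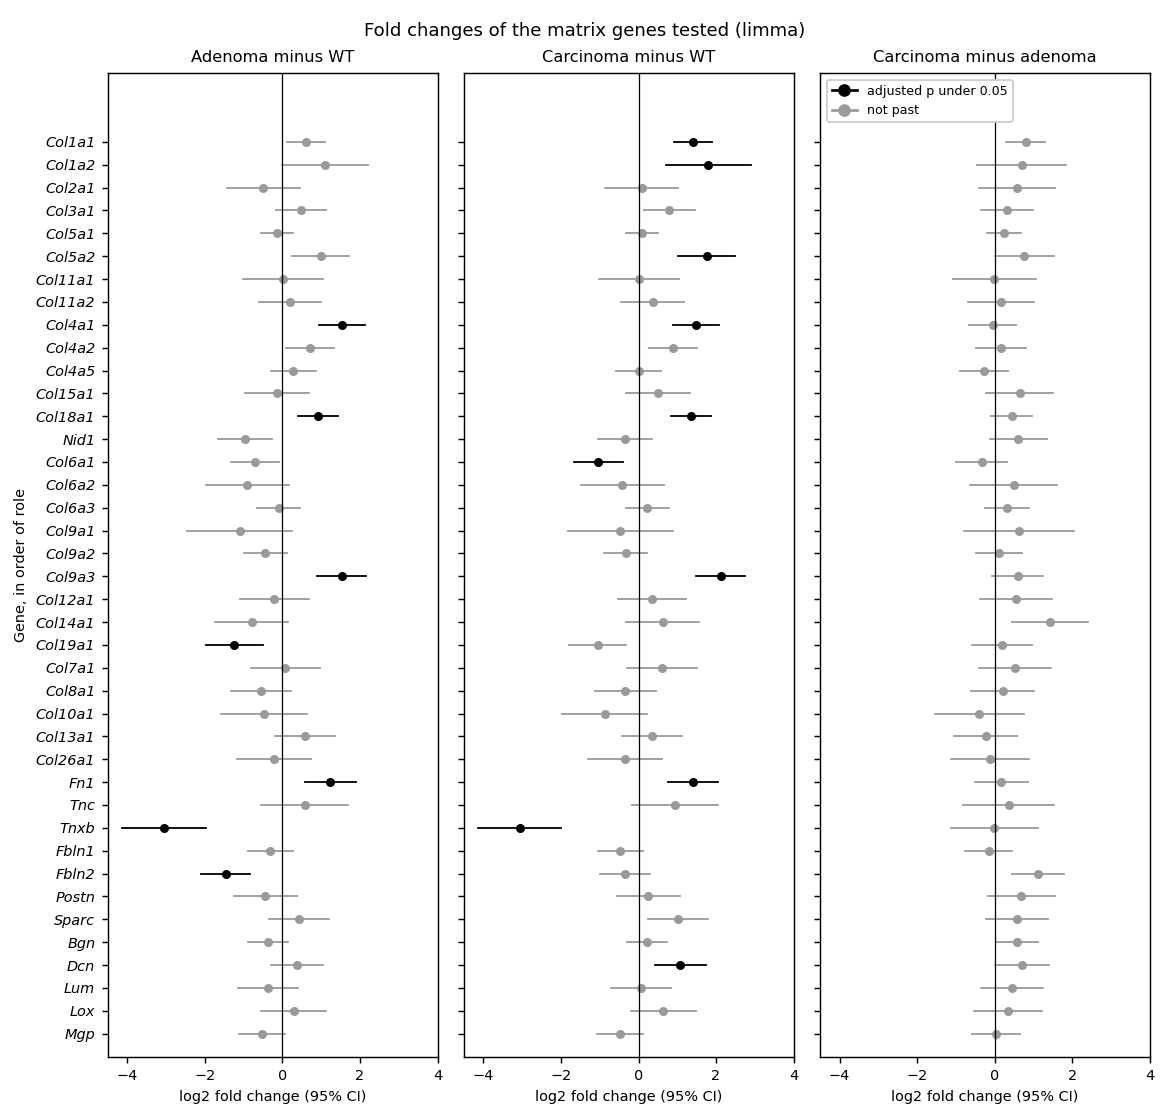
Log2 difference of each tested member, ordered by role, in adenoma minus WT, carcinoma minus WT and carcinoma minus adenoma, with 95% intervals from limma; black points passed the adjusted p of 0.05 and grey points did not. Col1a1, Col1a2 and Col5a2 sit to the right of 0 in carcinomas with intervals clear of it, and Tnxb lies farthest to the left in both tumours.

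Among the fibrillar collagens, 3 of 8 members rose in carcinomas and none was called in adenomas, against 4.2% and 4.05% of all genes called higher. Their median log2 difference was 0.58 in carcinomas and 0.34 in adenomas, against -0.14 over all genes in each. Differences were positive for 8 of 8 in carcinomas and 6 of 8 in adenomas, against 41.1% and 40.1% of all genes, though Col11a1, Col2a1 and Col5a1 lay within 0.10 of 0 in carcinomas. These counts rest on the brightest probe set of each gene. In carcinomas another probe set had -1.08 ± 0.54 for Col1a1, -0.30 ± 0.34 for Col1a2 and -0.18 ± 0.30 for Col3a1. Further ones had 0.59 ± 0.46 for Col3a1 and 0.05 ± 0.49 for Col5a1. Col1a1 encodes the main chain of type I collagen, the bulk protein of connective tissue fibres. Its signal was 2121, 2288, 2343, 1824 and 2394 in carcinomas, 1091, 1629.8, 1238, 1342 and 1063 in adenomas, and 557 to 1127 with a median of 845 in WT. Every carcinoma array lay above every adenoma and WT array, and adenomas overlapped WT only at the top of its range. Col1a1 rose by a log2 difference of 1.41 ± 0.23 in carcinomas (2.65-fold, adjusted p = 0.000535), while in adenomas the difference was 0.61 ± 0.23 (adjusted p = 0.121). The adenoma difference passed with array medians aligned (0.90, adjusted p = 0.0147) and with spike-in signal as covariate (0.95, adjusted p = 0.0455), and turned to -0.16 (adjusted p = 0.799) with both probe sets averaged.

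Col1a2 encodes the second chain of type I collagen. The 250 bases before its annotated start are shown because they hold 3 promoter motifs found in the search described further on (RefSeq, GRCm38.p6, chr6:4505368-4505617, plus strand, 5′ to 3′), with the capitals marking GGGCGG at 205 and 188 bases before the start and CCAAT at 109.
Col1a2: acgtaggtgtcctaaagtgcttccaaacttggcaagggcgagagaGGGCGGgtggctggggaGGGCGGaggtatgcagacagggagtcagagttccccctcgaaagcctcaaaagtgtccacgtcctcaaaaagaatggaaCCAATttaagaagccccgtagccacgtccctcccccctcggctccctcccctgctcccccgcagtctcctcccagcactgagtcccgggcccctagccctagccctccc
Its signal was 2283, 1452, 648, 2139.5 and 2391 in carcinomas, 778, 950.5, 1107, 1569 and 770.4 in adenomas, and 96.9 to 1721 with a median of 479 in WT. The groups overlapped, since 1 WT array was as bright as most tumour arrays and carcinoma 3 was dim. Col1a2 rose by 1.79 ± 0.52 in carcinomas (3.47-fold, adjusted p = 0.0369), against 1.10 ± 0.52 in adenomas (adjusted p = 0.217). Leaving out any of 8 single arrays (WT 1, 2, 4 or 6, carcinoma 1, 2, 4 or 5) ended the carcinoma call, at log2 differences of 1.34 to 1.83 and adjusted p of 0.0522 to 0.0919. It also ended, at an unmoved 1.79, with the floor at the 10th percentile (adjusted p = 0.0543), no filter (adjusted p = 0.0521) and only the 2 groups fitted (adjusted p = 0.0781). The probe set used was the brightest by its mean over all arrays, tumours included. The other Col1a2 probe set had 668 to 2016 in WT and 580 to 1271 in carcinomas. It was brighter than the used one on every WT array and dimmer on every carcinoma array but carcinoma 3. Its log2 difference was -0.30 ± 0.34 in carcinomas and -0.32 ± 0.34 in adenomas.

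Col5a2 encodes a chain of type V collagen, which lies inside type I fibres and helps set their width. Its signal was 882, 382, 254, 725 and 633 in carcinomas, 411, 195, 354, 219 and 440.2 in adenomas, and 112 to 286 with a median of 152 in WT. Only carcinoma 3 fell within the WT range, and in adenomas 2 arrays did. Col5a2 rose by 1.75 ± 0.35 in carcinomas (3.37-fold, adjusted p = 0.00276). In adenomas the difference was 0.99 ± 0.35 (adjusted p = 0.0903), which passed with array medians aligned (1.28, adjusted p = 0.0402), after quantile normalization (1.21, adjusted p = 0.0356) and without WT 2 (1.16, adjusted p = 0.0495).

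The other fibrillar chains did not pass. Col3a1, the chain of type III collagen that runs with type I in soft tissue, averaged 925 ± 295 in carcinomas, 737 ± 232 in adenomas and 538 ± 208 in WT (SD), a log2 difference of 0.80 ± 0.31 in carcinomas (adjusted p = 0.118). Col5a1, the partner chain of Col5a2 in type V collagen, averaged 1079 ± 128 in carcinomas, 917 ± 131 in adenomas and 1008 ± 85.1 in WT, with log2 differences of 0.10 ± 0.20 and -0.14 ± 0.20. The cartilage chains Col2a1, Col11a1 and Col11a2 averaged between 50.9 and 137 in every group, close to the floor.

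**Figure D3:**
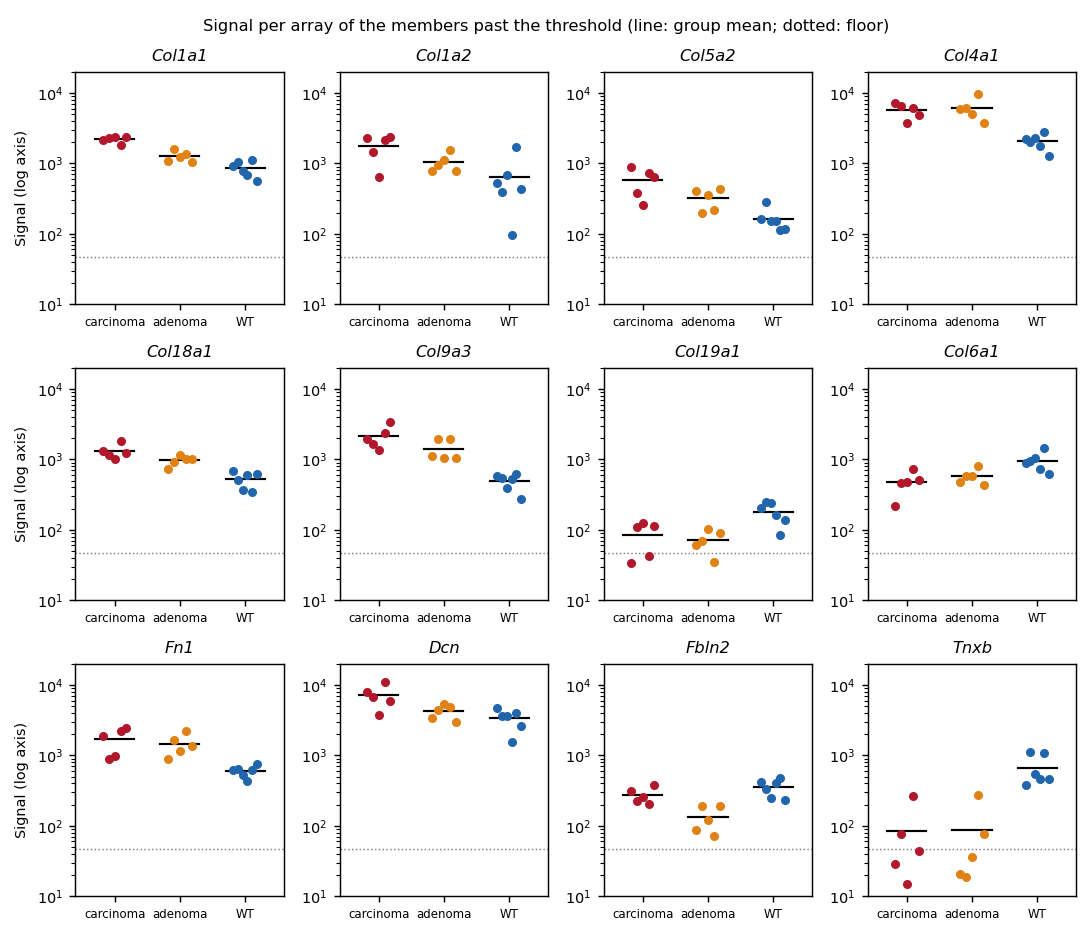
Signal (linear intensity, log axis) of the 12 members called in at least 1 comparison, 1 point per array, with carcinoma, adenoma and WT side by side the group mean as a line and the floor dotted. Col1a1 shows carcinoma arrays above every adenoma and WT array, and Tnxb shows both tumour groups below every WT array.

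In the basement membrane 2 of 6 tested members rose in each tumour and none fell. Of all genes, 4.2% were called higher and 4.92% lower in carcinomas, and 4.05% and 4.31% in adenomas. Col4a1 encodes a chain of type IV collagen, and its gene sits head to head with Col4a2, the partner chain, with annotated starts 21 bases apart on opposite strands (RefSeq, GRCm38.p6). Col4a1 signal was 7179, 6543, 3758, 6232 and 4949 in carcinomas, 5905, 6108, 4993, 9607 and 3753 in adenomas, and 1255 to 2775 with a median of 2119 in WT. Every tumour array lay above every WT array. Col4a1 rose by 1.48 ± 0.28 in carcinomas (2.80-fold, adjusted p = 0.00187) and by 1.53 ± 0.28 in adenomas (2.90-fold, adjusted p = 0.0016).

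Col4a2 leaned the same way without a call. Its signal was 882, 1097, 638, 1638 and 1182 in carcinomas, 659, 960.0, 837, 1675 and 757 in adenomas, and 424 to 827 with a median of 524 in WT. Carcinoma 3 and adenomas 1 and 5 fell within the WT range. The log2 difference was 0.88 ± 0.29 in carcinomas (adjusted p = 0.0693) and 0.72 ± 0.29 in adenomas (adjusted p = 0.148).

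Col18a1 encodes type XVIII collagen, a basement membrane proteoglycan whose end fragment is endostatin. Its signal was 1316, 1172, 1030.2, 1810.1 and 1252 in carcinomas, 740.3, 909, 1143, 1029.8 and 1004 in adenomas, and 344 to 673 with a median of 557 in WT. Every tumour array lay above every WT array. Col18a1 rose by 1.35 ± 0.25 in carcinomas (2.56-fold, adjusted p = 0.00131) and by 0.92 ± 0.25 in adenomas (1.89-fold, adjusted p = 0.0253). The adenoma call ended without WT 3, adenoma 3 or adenoma 5 (0.83 to 0.90, adjusted p from 0.0547 to 0.0713), with spike-in signal as covariate (0.95, adjusted p = 0.091) and with only the 2 groups fitted (0.92, adjusted p = 0.0529).

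Nid1, a linker between laminin and type IV collagen, had log2 differences of -0.35 ± 0.33 in carcinomas and -0.97 ± 0.33 in adenomas (adjusted p = 0.547 and 0.0832). Col15a1, a relative of Col18a1, averaged 257 ± 121 in carcinomas, 155 ± 62.2 in adenomas and 179.7 ± 89.7 in WT, and Col4a5 lay near the floor in every group.

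Collagen VI forms beaded microfibrils near cell surfaces from the products of Col6a1, Col6a2 and Col6a3. Here 1 of the 3 chains fell in carcinomas and none was called in adenomas, against 4.92% and 4.31% of all genes called lower. Col6a1 signal was 217, 462, 471, 725 and 507 in carcinomas, 475, 585, 587, 800.5 and 426 in adenomas, and 624 to 1432 with a median of 921 in WT. Carcinoma 4 and adenoma 4 were the only tumour arrays within the WT range. Col6a1 fell by 1.04 ± 0.30 on the log2 scale in carcinomas (adjusted p = 0.0349), against -0.71 ± 0.30 in adenomas (adjusted p = 0.162). The carcinoma call ended with spike-in signal as covariate (-0.58, adjusted p = 0.425), with array medians aligned (-0.72, adjusted p = 0.0857), with only the 2 groups fitted (-1.04, adjusted p = 0.0676) and without any of 7 single arrays (WT 1, 2, 3 or 5, carcinoma 1, 2 or 3), at -1.06 to -0.79 and adjusted p of 0.0525 to 0.105. Col6a2 and Col6a3 were not called: their differences in carcinomas were -0.41 ± 0.51 and 0.23 ± 0.26.

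Of the 6 tested fibril-associated collagens, Col9a3 rose in both tumours and Col19a1 fell in adenomas. The share of all genes called higher was 4.2% in carcinomas and 4.05% in adenomas, and 4.31% were called lower in adenomas. Col9a3 encodes a chain of type IX collagen, best known from the surface of cartilage fibrils. Its signal was 1974, 1669, 1372, 2402 and 3412 in carcinomas, 1115, 1974, 1034, 1978 and 1041 in adenomas, and 273 to 623 with a median of 536 in WT. Every tumour array lay above every WT array. Col9a3 rose by 2.12 ± 0.30 in carcinomas (4.36-fold, adjusted p = 0.000127) and by 1.53 ± 0.30 in adenomas (2.88-fold, adjusted p = 0.00313). The other type IX chains did not pass: Col9a1 had -0.47 ± 0.65 in carcinomas and -1.10 ± 0.65 in adenomas, and Col9a2 had -0.33 ± 0.27 and -0.44 ± 0.27.

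Col19a1 encodes a minor collagen of basement membrane zones. Its signal was 34.0, 109.7, 126, 42.2 and 114 in carcinomas, 60.7, 68.7, 103, 34.8 and 88.6 in adenomas, and 83.4 to 247 with a median of 182 in WT. The groups overlapped at the dim end of WT. Col19a1 fell by 1.24 ± 0.35 on the log2 scale in adenomas (adjusted p = 0.0349), against -1.05 ± 0.35 in carcinomas (adjusted p = 0.0694). The adenoma call ended without any of 8 single arrays (WT 1, 2, 3 or 4, adenoma 1, 2, 4 or 5), at -1.32 to -1.09 and adjusted p of 0.0531 to 0.0825. It also ended after quantile normalization (-0.86, adjusted p = 0.168), with array medians aligned (-0.92, adjusted p = 0.131) and with the floor at the 40th percentile (-0.64, adjusted p = 0.061) or the 10th (-1.33, adjusted p = 0.0652).

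No call fell among the 5 tested network, anchoring and transmembrane collagens, against 9.12% of all genes called in carcinomas and 8.36% in adenomas. Col7a1, the anchoring fibril chain, averaged 759 ± 257 in carcinomas, 564 ± 286 in adenomas and 565 ± 334 in WT. Col13a1, a transmembrane collagen, averaged 360.5 ± 135 in carcinomas, 414.5 ± 123 in adenomas and 301 ± 119 in WT. Lox, the enzyme that crosslinks collagen and elastin, and Mgp, an inhibitor of calcification, were not called either. Lox averaged 93.2 ± 58.0 in carcinomas, 65.4 ± 68.7 in adenomas and 44.9 ± 42.4 in WT, and no adenoma array of Mgp exceeded the floor.

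**Figure D4:**
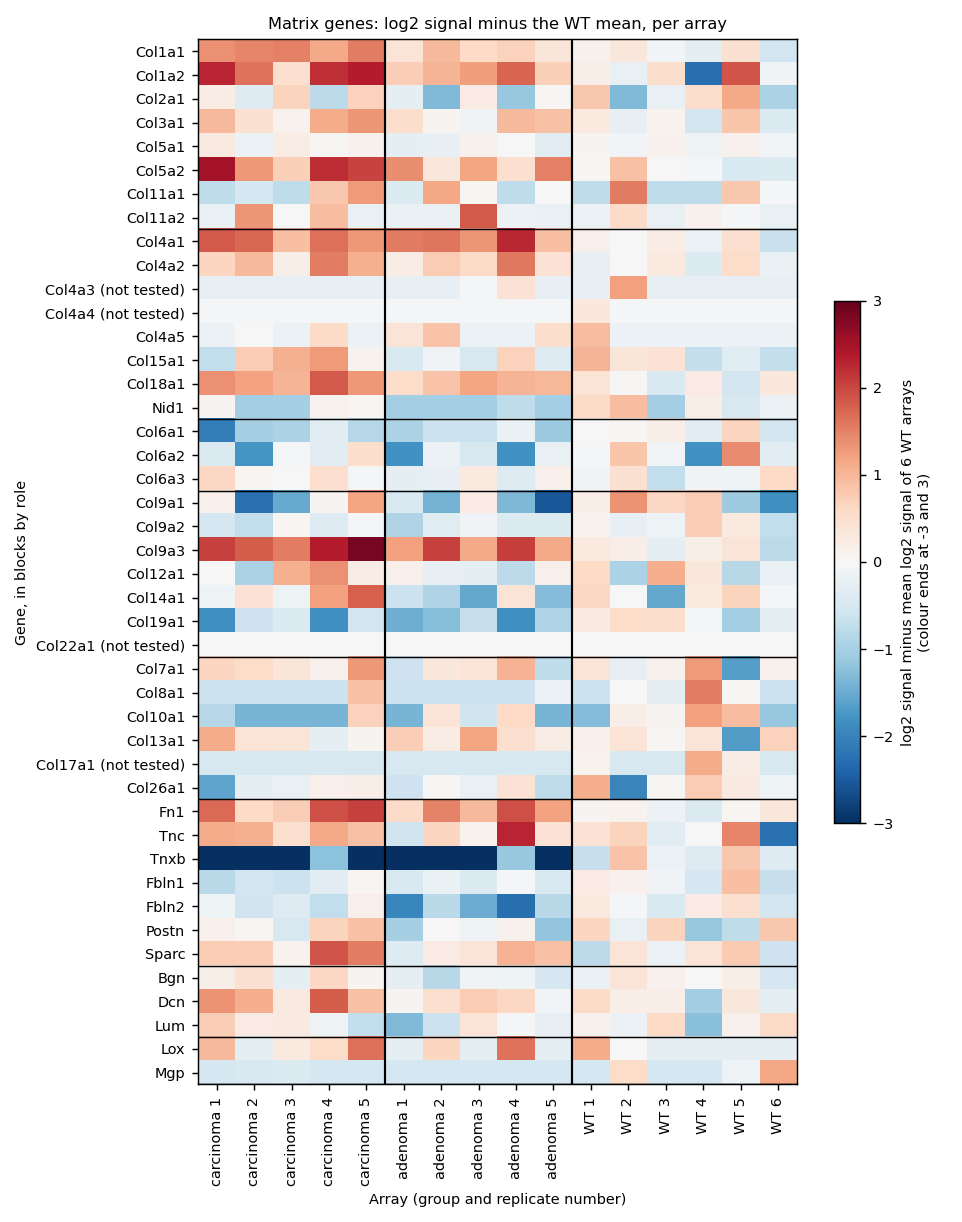
Log2 signal of every member on each array, relative to that gene's mean over the WT arrays, with genes grouped by role and arrays ordered carcinoma, adenoma, WT. Col4a1, Col18a1, Col9a3 and Fn1 are above their WT mean on every tumour array, and Tnxb is below it on every tumour array.

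The adhesive glycoproteins held both directions: 1 of 7 rose and 1 fell in carcinomas, and 1 rose and 2 fell in adenomas. Of all genes, 4.2% were called higher and 4.92% lower in carcinomas, and 4.05% and 4.31% in adenomas. Fn1 encodes fibronectin, which links integrins to collagen. Its signal was 1903, 898, 979.5, 2238 and 2452 in carcinomas, 878, 1652, 1157, 2257 and 1361 in adenomas, and 439 to 749.6 with a median of 621 in WT. Every tumour array lay above every WT array. Fn1 rose by 1.40 ± 0.31 in carcinomas (2.64-fold, adjusted p = 0.00709) and by 1.23 ± 0.31 in adenomas (2.35-fold, adjusted p = 0.0185). The adenoma call ended without adenoma 2 (1.17, adjusted p = 0.0509).

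Tnxb encodes tenascin X, a glycoprotein of loose connective tissue that binds collagen fibres. Its signal was 28.2, 76.5, 14.7, 261 and 44.2 in carcinomas, 20.8, 18.4, 36.1, 276 and 76.3 in adenomas, and 379 to 1112 with a median of 504 in WT. Every tumour array lay below every WT array. In each tumour group 3 of 5 arrays were under the floor, which makes the fall smaller on this probe set, so its size is uncertain. Tnxb fell by 3.07 ± 0.51 on the log2 scale in carcinomas (adjusted p = 0.0006) and fell by 3.05 ± 0.51 in adenomas (adjusted p = 0.000811). Over the 28 alternatives the log2 difference ran from -3.55 to -2.06 in carcinomas and from -3.63 to -2.05 in adenomas. The smallest fall in adenomas came with spike-in signal as covariate (adjusted p = 0.045, limma).

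Fbln2 encodes fibulin 2, found in elastic fibres and basement membranes. The 250 bases before its start are shown because Fbln2 is the only member called lower in adenomas whose carcinoma and adenoma arrays did not overlap (RefSeq, GRCm38.p6, chr6:91212514-91212763, plus strand, 5′ to 3′). Capitals mark CCGCCC, which is GGGCGG on the opposite strand, 16 bases before the start.
Fbln2: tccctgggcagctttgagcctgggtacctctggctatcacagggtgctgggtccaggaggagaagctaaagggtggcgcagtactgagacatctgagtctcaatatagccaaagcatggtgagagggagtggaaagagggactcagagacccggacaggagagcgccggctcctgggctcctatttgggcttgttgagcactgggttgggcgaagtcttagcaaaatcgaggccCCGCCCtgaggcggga
Its signal was 308, 223, 259, 202 and 375 in carcinomas, 86.6, 194, 120.5, 70.6 and 191 in adenomas, and 230.5 to 474 with a median of 365 in WT. Adenomas lay below every carcinoma and every WT array, while carcinomas overlapped WT. Fbln2 fell by 1.47 ± 0.31 on the log2 scale in adenomas (adjusted p = 0.0049), against -0.34 ± 0.31 in carcinomas (adjusted p = 0.527). The adenoma call ended with spike-in signal added as covariate (-1.29, adjusted p = 0.0687).

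The remaining glycoproteins did not pass. Sparc, a collagen-binding protein of remodelling tissue, averaged 474 ± 229 in carcinomas, 307 ± 111 in adenomas and 231 ± 95.8 in WT, with a log2 difference of 1.01 ± 0.37 in carcinomas (adjusted p = 0.0947). Tnc, tenascin C, averaged 605 ± 103 in carcinomas, 594 ± 524 in adenomas and 402 ± 269.6 in WT, with adenoma 4 at 1513 and the other adenomas at 208 to 489.6. Postn and Fbln1 had log2 differences within 0.5 of 0 in both tumours.

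Among the small leucine-rich proteoglycans, which bind collagen fibres and regulate their spacing, 1 of 3 rose in carcinomas and none was called in adenomas. Of all genes, 4.2% were called higher in carcinomas and 4.05% in adenomas. Dcn, decorin, had the highest mean signal of the members, at 8019, 6745, 3806, 11182 and 5843 in carcinomas, 3370.1, 4445, 5347, 4870.1 and 3012 in adenomas, and 1537 to 4724 with a median of 3649 in WT. Carcinoma 3 was the only carcinoma within the WT range. Dcn rose by 1.08 ± 0.32 in carcinomas (2.12-fold, adjusted p = 0.0388), against 0.38 ± 0.32 in adenomas (adjusted p = 0.498). The carcinoma call ended without any of 7 single arrays (WT 2, 4 or 6, carcinoma 1, 2, 4 or 5), at 0.87 to 1.13 and adjusted p of 0.0525 to 0.114. It also ended after quantile normalization (1.02, adjusted p = 0.0581) and, at an unmoved 1.08, with the floor at the 10th percentile (adjusted p = 0.053) and only the 2 groups fitted (adjusted p = 0.0754). Bgn, biglycan, had 0.21 ± 0.24 in carcinomas and -0.37 ± 0.24 in adenomas, and Lum, lumican, had 0.07 ± 0.37 and -0.38 ± 0.37.

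Carcinoma against adenoma gave no member call by limma in either direction, against 0% of all genes higher and 0.0268% lower (2 calls, S100g and Gpx5). At an unadjusted p under 0.05, 6 members were higher in carcinomas and none was lower, against 0.832% and 1.62% of all genes. The median log2 difference was 0.36 over the members and 0.01 over all genes, and 77.5% of members were positive, against 50.8% of all genes. Fbln2 differed by 1.12 ± 0.32 (95% interval 0.45 to 1.80, adjusted p = 0.853) and Col1a1 by 0.80 ± 0.24 (0.29 to 1.30, adjusted p = 1). These were the only 2 members whose carcinoma arrays all lay above the adenoma arrays, where 0.148% of all genes did so. Col14a1, a fibril-associated chain, differed by 1.42 ± 0.47 (0.44 to 2.40), and Bgn, Col5a2 and Dcn by 0.58 ± 0.25, 0.77 ± 0.36 and 0.70 ± 0.33.

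Whether groups overlapped was also counted for the WT comparisons. In carcinomas 5 of the 40 tested members lay above WT on every array and 1 below, against 3.13% and 3.15% of all genes, the lower count being near that share. In adenomas 4 of the 40 lay above and 2 below, against 3.06% and 2.75% of all genes.

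Probe sets of 1 gene did not always move together. The unused Col1a1 probe set had -1.08 ± 0.54 in carcinomas and -0.93 ± 0.54 in adenomas, the unused Col1a2 probe set had -0.30 ± 0.34 and -0.32 ± 0.34, and the unused Col9a3 probe set had -0.84 ± 0.41 and -0.55 ± 0.41, none past the threshold. With all probe sets of a gene averaged in place of the brightest, the carcinoma calls of Col1a1 (0.16, adjusted p = 0.782), Col1a2 (0.75, adjusted p = 0.224) and Col9a3 (0.64, adjusted p = 0.189) ended, as did that of Col9a3 in adenomas (0.49, adjusted p = 0.333). For Col18a1, a pair of further probe sets gave 3.37 ± 0.37 and 2.21 ± 0.39 in carcinomas and 2.82 ± 0.37 and 2.05 ± 0.39 in adenomas, and another gave 0.18 ± 0.29 and 0.11 ± 0.29. Both Tnxb probe sets fell: the dimmer fell by 1.88 ± 0.42 in carcinomas and fell by 1.68 ± 0.42 in adenomas, and both carry the suffix that Affymetrix gives to probe sets that may share probes with other transcripts.

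**Figure D5:**
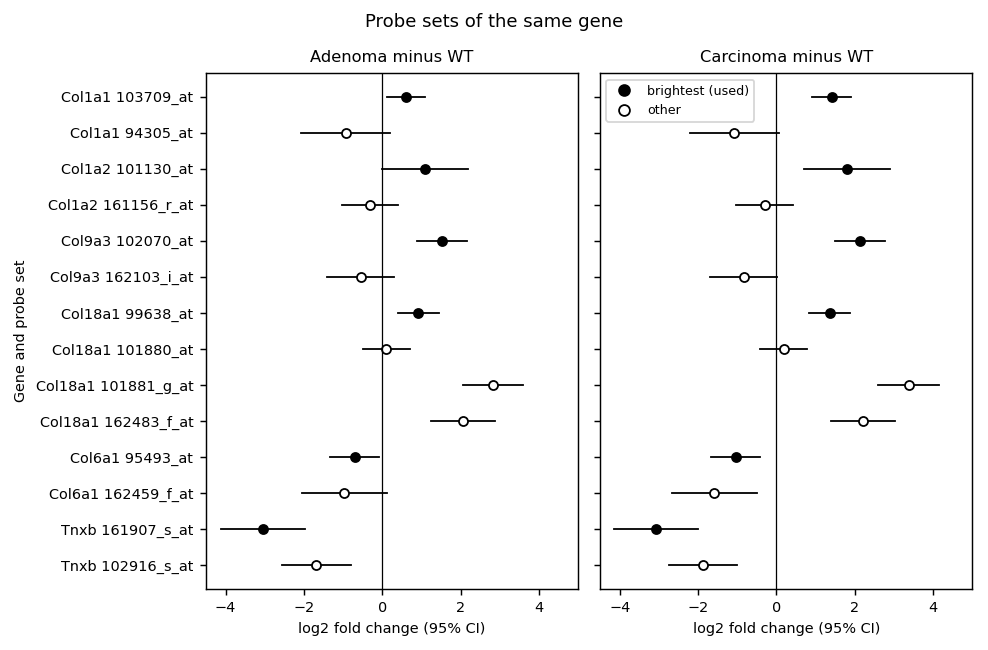
Log2 difference of each tested probe set of the called members that have more than 1, in adenoma minus WT and carcinoma minus WT, with 95% intervals; filled points are the brightest probe set, the one used, and open points the others. For Col1a1, Col1a2 and Col9a3 the used and unused probe sets lie on opposite sides of 0. The unused ones of Col1a1 and Col9a3 were dimmer than the used ones on every array.

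Several members are neighbours on their chromosome with no coding gene between them: Col9a1 and Col19a1, Col3a1 and Col5a2, Col4a3 and Col4a4, Col6a1 and Col6a2, Dcn and Lum, and Col4a1 and Col4a2. In no such pair were both genes called in the same comparison, though Col4a3 and Col4a4 were too dim to test and could not be called. Promoter windows of 250 bases were found in RefSeq (GRCm38.p6) for 30 of the 44 members, 36 windows in all, and were searched on both strands. CCAAT stood in 27.8% of them and in 33.9% of all 32841 windows, TATAAA in 22.2% and 12.4%, and GGGCGG in 50% and 32.7%. These are matches of letters and were not tested.

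Genes that make, bind or cleave the matrix were read from lists, whose counts stand beside 4.2% of all genes called higher and 4.92% lower in carcinomas, and 4.05% and 4.31% in adenomas; both comparisons share the WT arrays. None of 12 tested genes of collagen synthesis and crosslinking was called in either tumour, at median log2 differences of 0.05 in carcinomas and 0.15 in adenomas. Of 25 other matrix proteins tested, the same 3 laminin chains rose in both tumours: Lamb3 by 4.65 ± 0.36 in carcinomas and 4.67 ± 0.36 in adenomas, Lama5 by 2.96 ± 0.30 and 2.79 ± 0.30, and Lama3 by 2.82 ± 0.45 and 2.98 ± 0.45. Laminins are the other network of the basement membrane. Lama2, the laminin chain of muscle, fell by 1.51 ± 0.33 in carcinomas and fell by 1.57 ± 0.33 in adenomas. Matn4 fell in carcinomas by 1.42 ± 0.39, and Matn3 lay at the floor on every array.

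Of 12 tested receptors for collagen and fibronectin, Itgav, an integrin chain that binds fibronectin, rose by 1.72 ± 0.24 in carcinomas and 1.94 ± 0.24 in adenomas. Sdc1, a syndecan, rose by 1.07 ± 0.23 and 1.03 ± 0.23. Of 14 tested proteases and inhibitors, 4 metalloproteinases rose in both tumours: Mmp7 by 2.73 ± 0.39 in carcinomas and 2.46 ± 0.39 in adenomas, Mmp10 by 2.67 ± 0.38 and 2.15 ± 0.38, Mmp13, a collagenase, by 2.78 ± 0.48 and 2.01 ± 0.48, and Mmp14 by 1.73 ± 0.31 and 1.46 ± 0.31. Timp2, an inhibitor of these enzymes, fell by 1.35 ± 0.36 in adenomas. Of 12 tested genes of TGF-beta signalling, Inhba rose by 1.67 ± 0.42 and Tgfb2 fell by 1.30 ± 0.34 in carcinomas, Smad7 rose by 1.03 ± 0.30 in adenomas, and Tgfb1 lay at the floor on every array. No gene of these lists was called between carcinoma and adenoma.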

How the data were processed

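The authors deposited 1 linear intensity per probe set and array; the labels name no software for this step. With the top and bottom 2% removed, array means were 500.3 to 500.4, so arrays were taken as already scaled and were not normalized again, and median signal per array ran from 126.8 to 234.2. Groups and replicate numbers came from sample titles. The 66 control probe sets were left out. Symbols came from the platform annotation, in which 10833 probe sets have a single symbol. Values below 46.9 were set to it, log2 was taken, and testing required 5 or more of the 16 arrays above it. A single model of the 3 groups was made with limma 3.58.1 (R 4.3.3; lmFit, eBayes, 13 residual degrees of freedom), two-sided, with Benjamini-Hochberg adjustment over all 7455 genes. Control measures were compared by exact permutation (two-sided), with adjustment over 3 pairs of groups.

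Alternatives numbered 28, of which 16 left out 1 array each; the others changed the floor, the filter, the normalization, the probe set rule, the samples fitted or a covariate. The members and gene lists were chosen with earlier results of these data known. Genes named were every member called in any comparison, members of the highest signal, and up to 4 called genes per list and comparison; Matn4 and Timp2, the fifth in their lists, were named after their values were seen, to complete the counts. Further genes are named to complete a role group. The number of arrays limits precision. Promoter windows came from RefSeq (GRCm38.p6), and no sequence is shown for Lox.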

Additional observations from a re-analysis of the deposited data

Results flagged for a closer look

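Within groups, 36 sets of array values of the called members were examined for an array far from the others. Of these, 2 stood apart, a share near the rate of about 1 in 20 that chance gives. Both were of Tnxb: carcinoma 4 had a signal of 261.4, against 14.7 to 76.5 in the other carcinomas, and adenoma 4 had 276.4, against 18.4 to 76.3 in the other adenomas. Both values were still below the lowest WT array, at 379.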

How the results depend on the processing

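No member call changed direction in any of the 28 alternatives, but many ended. The Gapdh ratio nearly followed the groups, so a fit with it as a covariate can hardly tell ratio and group apart. With that covariate, calls over all genes fell to 103 for carcinoma against WT (680 otherwise) and to 72 for adenoma against WT (623 otherwise). In each, 0 members were higher and 0 lower. Leaving out the 4 WT arrays with high spike-in signal, there were 211 and 182 calls, with 5 members higher and 0 lower in carcinomas and 2 higher and 0 lower in adenomas. With spike-in signal as a covariate there were 385 and 399 calls, with 12 members higher and 1 lower in carcinomas and 5 higher and 2 lower in adenomas. With array medians aligned, 11 members were higher and 1 lower in carcinomas, and 7 were higher and 2 lower in adenomas. Averaging probe sets left 5 members higher in carcinomas, and fitting only the 2 groups left 1 lower. Carcinoma against adenoma, with 2 calls otherwise, gave 0 with the floor at the 10th percentile, 5 at the 40th, 6 with only the 2 groups and 6 without the high spike-in WT arrays; no alternative gave a member call there. The cause of these changes was not tested.

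Leaving out 1 array gave 497 to 780 calls for carcinoma against WT, with 6 to 9 members higher and 1 to 2 lower, 387 to 690 for adenoma against WT, with 3 to 5 higher and 2 to 3 lower, and 1 to 5 for carcinoma against adenoma. The lowest adenoma count, 387, was without adenoma 5. Median log2 differences over all genes were -0.14 in both tumours, -0.01 in carcinomas and -0.02 in adenomas after quantile normalization, and 0.15 and 0.12 with array medians aligned. The share of calls that were higher was 46.0%, 58.9% and 73.5% in carcinomas and 48.5%, 62.6% and 75.4% in adenomas under these 3 scalings. Member medians were 0.24, 0.51 and 0.55 in carcinomas, and -0.14, 0.06 and 0.15 in adenomas.

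No label says whether replicate numbers pair the arrays, and 5 pairs per comparison are too few to settle it. Same-numbered arrays' deviations correlated at -0.01 to 0.40 for carcinoma with WT, -0.27 to 0.22 for adenoma with WT and -0.24 to 0.30 for carcinoma with adenoma. The same-numbered array was the best match in 2, 1 and 2 of 5 pairs. With the replicate number as a block, there were 850, 734 and 2 calls (680, 623 and 2 without it), with 7, 4 and 0 members higher and 3, 3 and 0 lower. The carcinoma calls of Col1a2 (1.77, adjusted p = 0.0647) and Dcn (1.03, adjusted p = 0.0889) ended with the block.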
